A study of Homo sapiens with 18 samples.

Results

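Transcripts of LNCaP cells depleted of PDIA1 were compared directly with those of LNCaP cells depleted of PDIA5, 96 h after siRNA transfection. LNCaP is a human prostate cancer line with a luminal epithelial character, kept here in medium with 10% fetal bovine serum. The comparison used 6 of the 18 RNA-seq libraries of the series, 3 after siPDIA1 and 3 after siPDIA5, and the 3 libraries after a control siRNA (siNC) at 96 h served only to say which side moved. All 9 libraries came from lipid transfection with RNAiMAX and polyA selection, and the 48 h libraries of the same siRNAs were used for a comparison in time. Of 59385 genes in the deposited table, the 11685 with a mean RPKM (reads per gene scaled to transcript length and library size) no lower than 1 across all 18 libraries entered the tests. The sources used here give neither the siRNA sequences nor their number per target. Nothing in the labels states that replicate libraries are separate cultures, so p-values measure the spread between these libraries, which may be technical.

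PDIA1 (gene symbol P4HB) and PDIA5 belong to the protein disulphide isomerase (PDI) family, whose members work in the lumen of the endoplasmic reticulum (ER) and make, break and rearrange disulphide bonds in secreted and membrane proteins. PDIA1 is the founding member of the family and also serves as the beta subunit of collagen prolyl 4-hydroxylase and of the microsomal triglyceride transfer complex. PDIA5 is a lesser studied member that has been tied to the activation of ATF6. When folding in the ER fails, the sensors PERK, IRE1 and ATF6 start the unfolded protein response, in which ATF4, translated when eIF2alpha is phosphorylated, drives genes of amino acid supply and redox balance, and ATF6 and XBP1 drive chaperone genes.

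Depth, estimated from the steps between low values, was 31.7 to 43.1 M reads per library in the 6. The library of siPDIA1 at 96 h replicate 1 stood apart from the rest: its log2 values deviated from its group mean by 0.247 (root mean square over tested genes), against 0.109 to 0.179 in the other 17 libraries. Replicate 3 of the same group stood apart in another measure, with 29505 genes above 0 against 20813 to 24882 in the others. Mitochondrially encoded genes took 10.7% to 11.5% of estimated reads after siPDIA1 and 12.6% to 13.9% after siPDIA5, against 10.1% to 11.1% after siNC. The summed RPKM of 11 luminal prostate markers, all of them tested, was 1091 to 1120 after siPDIA1 and 1373 to 1419 after siPDIA5. After siNC it was 1059 to 1131. Much of this sum was KLK3, with means of 350 RPKM after siPDIA1, 602 after siPDIA5 and 291 after siNC. Between the knockdowns, 3 of the 11 markers were higher after siPDIA1, 4 were higher after siPDIA5 and 4 were not called. Markers of other cell types were low: the 13 leukocyte markers summed to at most 0.833 RPKM in any library, and 3 of them were listed at 0 in all 9. Among 12 stromal markers 2 passed the filter, ACTA2 and COL1A1, and the sum was 20.3 to 22.4 after siPDIA1, 5.02 to 5.65 after siPDIA5 and 10.3 to 11.1 after siNC. Over the 9 libraries ACTA2 spanned 1.12 to 16.3 RPKM and COL1A1 2.43 to 3.59, with DCN at most 0.0103. After siPDIA5 ACTA2 was at most 1.61, below COL1A1. The 10 basal markers summed to 5.46 to 5.58 after siPDIA1, 2.36 to 2.80 after siPDIA5 and 0.740 to 0.844 after siNC, and LAMB3 was the 1 that passed the filter. The 10 endothelial markers summed to 3.13 to 3.86, 3.14 to 3.72 and 2.17 to 2.29 in the same order. In such bulk samples fewer cells of a type and less RNA per cell cannot be told apart.

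Each target was low in the libraries labelled for it. P4HB (GRCh38, chromosome 17, bases 81843159 to 81860694, minus strand) had RPKM values of 10.1, 8.17 and 9.26 after siPDIA1, 123, 131 and 120.0 after siPDIA5, and 72.4, 63.5 and 70.9 after siNC. The 3 groups did not overlap, so P4HB stood below siNC in one knockdown and above it in the other. On the log2(RPKM + 1) scale, and with every difference given as siPDIA1 minus siPDIA5, P4HB differed by -3.63 ± 0.07 (SE of the limma model, adjusted p = 3.02e-15). Relative to siNC, P4HB changed by -2.78 ± 0.07 after siPDIA1 and by 0.84 ± 0.07 after siPDIA5. PDIA5 (chromosome 3, bases 123067062 to 123225227, plus strand) had RPKM values of 17.6, 14.8 and 15.4 after siPDIA1, 1.33, 1.63 and 1.25 after siPDIA5, and 15.7, 13.5 and 15.6 after siNC. The siPDIA5 libraries lay far below the other 6, which overlapped each other. The difference was 2.82 ± 0.08 (adjusted p = 4.71e-13), and PDIA5 after siPDIA1 was 0.09 ± 0.08 from siNC (adjusted p = 0.41). PDIA5 shares 490 exonic bases with SEC22A on the same strand, so a part of its reads is uncertain.

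Between the knockdowns, 5672 of the 11685 tested genes (48.5%) differed at an adjusted p under 0.05, the threshold for a call throughout. Of these, 3234 (27.7% of tested genes) were higher after siPDIA1 and 2438 (20.9%) were higher after siPDIA5, and the median difference over all tested genes was 0.04. In 7061 genes (60.4%) the 3 siPDIA1 and 3 siPDIA5 libraries did not overlap. Differences of at least 2-fold had the opposite balance: 120 genes (1.03%) were higher after siPDIA1 and 224 (1.92%) after siPDIA5, 344 in all (2.94%). That number rests on the pseudocount and the filter: it was 564 with a pseudocount of 0.25 and 213 when the minimum mean RPKM was raised to 5. Against siNC, 5294 genes (45.3%; 2344 higher, 2950 lower) were called after siPDIA1 and 5972 (51.1%; 2433 higher, 3539 lower) after siPDIA5, and these comparisons share their control libraries. Without siPDIA1 replicate 1 the direct comparison called 5145 genes, of which 343 differed at least 2-fold, and without replicate 3 it called 5125, of which 403 did.

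The siNC libraries showed which side moved. Among the 5672 called genes, 1302 were called against siNC after siPDIA1 only, 1842 after siPDIA5 only, 1370 in both knockdowns in the same direction, 573 (10.1%) in both in opposite directions, and 585 in neither. Among the 344 genes that differed at least 2-fold, 132 (38.4%) were called in opposite directions. Of the 224 genes at least 2-fold higher after siPDIA5, 183 were above siNC after siPDIA5 and 132 were below siNC after siPDIA1, and 95 did both. Of the 120 genes at least 2-fold higher after siPDIA1, 78 were above siNC after siPDIA1 and 69 were below siNC after siPDIA5, and 37 did both.

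**Figure D1:**
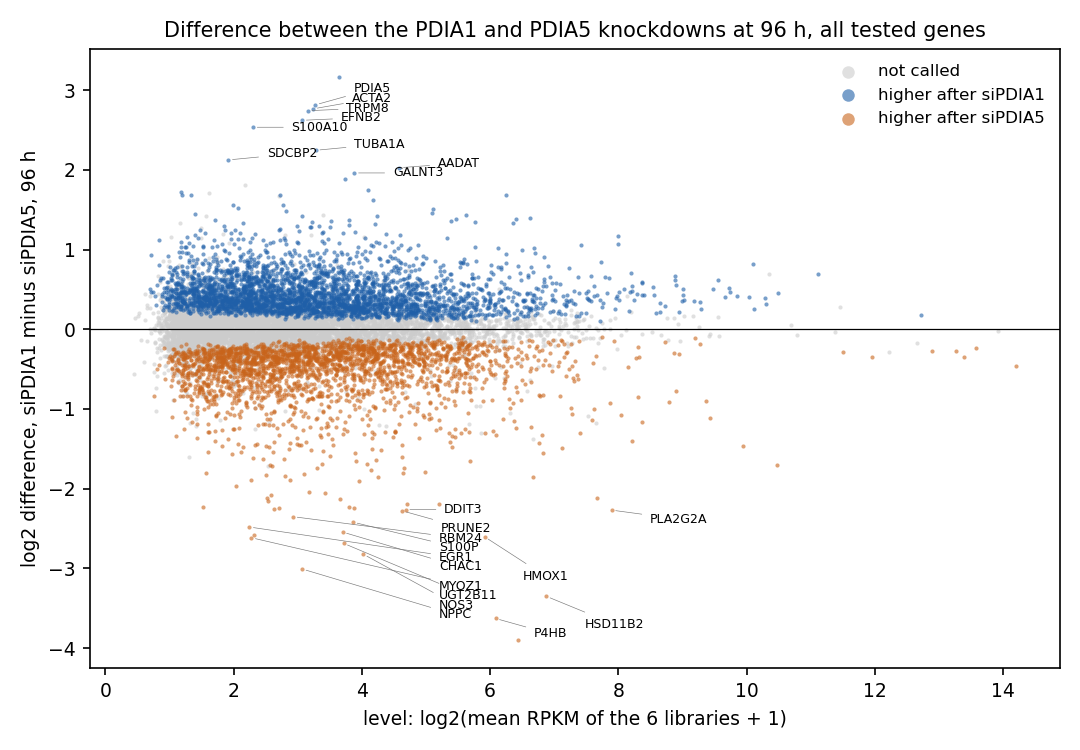
The log2 difference between the knockdowns (siPDIA1 minus siPDIA5, vertical axis) against the mean level of the 6 libraries on the log2(RPKM + 1) scale (horizontal axis), with 1 point for each of the 11685 tested genes. Blue genes (3234) were higher after siPDIA1, orange genes (2438) were higher after siPDIA5, grey genes were not called, and some of the most extreme protein-coding genes are named, with P4HB at -3.63 and PDIA5 at 2.82.

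Besides P4HB, HSD11B2 and NPPC were among the genes with the largest difference towards siPDIA5, and in both the knockdowns lay on opposite sides of siNC. HSD11B2, which inactivates cortisol (chromosome 16, bases 67430652 to 67437553, plus strand), had RPKM values of 19.8, 21.2 and 18.8 after siPDIA1, 195, 219.7 and 224 after siPDIA5, and 28.1, 26.2 and 26.6 after siNC. Most of this gap was a rise after siPDIA5, with a small fall after siPDIA1 (difference -3.35 ± 0.07, adjusted p = 5.22e-15), and 248 exonic bases of HSD11B2 overlap another annotated transcript on the other strand. The sources used here do not say whether reads were counted by strand, so for genes named with such an overlap the reads of the partners cannot be told apart. Such overlaps among genes named below include PFKM with SENP1 (628 bases), MCM7 with AP4M1 (392), TAPBPL with VAMP1 (339) and JUNB with HOOK2 (259). They also include MRPS27 with PTCD2 (190), RPL4 with ZWILCH (158) and MRPL20 with MRPL20-AS1 (139), and further genes have smaller ones. NPPC, the precursor of C-type natriuretic peptide, had 0.654, 0.949 and 0.921 after siPDIA1, 11.2, 16.4 and 14.1 after siPDIA5, and 5.73, 4.49 and 4.02 after siNC, again on both sides of the control (difference -3.01 ± 0.15).

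A second kind of gene rose above siNC in both knockdowns, and further after siPDIA5. NOS3, the endothelial nitric oxide synthase, had RPKM values of 0.230, 0.281 and 0.221 after siNC, 2.59, 2.63 and 3.99 after siPDIA1, and 27.3, 28.0 and 26.9 after siPDIA5. The groups were stepwise and apart, and the knockdowns differed by -2.82 ± 0.11 (adjusted p = 2.28e-11). PLA2G2A, a secreted phospholipase, had 8.54, 7.45 and 9.22 after siNC, 81.4, 77.1 and 83.6 after siPDIA1, and 388, 377 and 414 after siPDIA5. Relative to siNC it changed by 3.12 ± 0.13 after siPDIA1 and 5.39 ± 0.13 after siPDIA5, with a direct difference of -2.27 ± 0.13 (adjusted p = 1.25e-09).

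A further set rose after siPDIA5 with no call after siPDIA1. HMOX1, which degrades heme, had RPKM values of 16.3, 13.6 and 18.5 after siPDIA1, 100.1, 101 and 106 after siPDIA5, and 16.8, 12.4 and 12.7 after siNC. The siPDIA1 and siNC libraries overlapped, and the siPDIA5 libraries stood apart from both (difference -2.60 ± 0.11, adjusted p = 4.92e-11). DDIT3, the stress factor CHOP, had 7.07, 8.49 and 8.07 after siPDIA1, 40.2, 40.6 and 43.8 after siPDIA5, and 8.31, 7.36 and 9.23 after siNC. The difference was -2.26 ± 0.15 (adjusted p = 6.17e-09), and 355 exonic bases overlap MARS1 on the other strand, which also differed. EGR1, an immediate early transcription factor, had 0.386, 0.30 and 0.649 after siPDIA1, 6.57, 7.02 and 7.53 after siPDIA5, and 0.484, 0.683 and 0.731 after siNC (difference -2.48 ± 0.11). MYOZ1, which encodes a protein of the muscle Z disc, had the same pattern at low level, with a difference of -2.62 ± 0.19. PRUNE2 showed the reverse: its fall was seen after siPDIA1 (-2.24 ± 0.15 from siNC), it was 0.04 ± 0.15 from siNC after siPDIA5, and 262 of its exonic bases overlap GCNT1 on the other strand. RBM24, an RNA-binding protein, and S100P, a calcium-binding protein, each fell after siPDIA1 and rose after siPDIA5, with differences of -2.35 ± 0.10 and -2.42 ± 0.22. UGT2B11, which conjugates steroids with glucuronic acid, differed by -2.69 ± 0.12, and its reads may be shared with near-identical UGT2B genes such as UGT2B17 (-1.74 ± 0.07).

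The genes with the largest difference towards siPDIA1 were, besides PDIA5, ACTA2, TRPM8 and EFNB2. ACTA2, smooth muscle actin (chromosome 10, bases 88935074 to 88991339, minus strand), had RPKM values of 15.2, 15.0 and 16.3 after siPDIA1, 1.61, 1.12 and 1.56 after siPDIA5, and 6.76, 6.83 and 6.94 after siNC. The knockdowns lay on opposite sides of siNC (difference 2.77 ± 0.08, adjusted p = 4.71e-13), and 380 exonic bases overlap FAS on the other strand. ACTA2 is also a stromal marker, while COL1A1 differed by -0.01 ± 0.09 (adjusted p = 0.933) and DCN was near 0. TRPM8, a cold-sensing calcium channel that is abundant in prostate (chromosome 2, bases 233917398 to 234019522, plus strand), had 15.4, 13.0 and 15.3 after siPDIA1, 1.64, 1.09 and 1.24 after siPDIA5, and 2.21, 2.19 and 2.01 after siNC. Its rise after siPDIA1 was 2.30 ± 0.10 and its fall after siPDIA5 was -0.44 ± 0.10, for a direct difference of 2.74 ± 0.10 (adjusted p = 4.21e-12). EFNB2, a membrane ligand of Eph receptors, had 12.2, 13.6 and 14.6 after siPDIA1, 1.26, 1.56 and 1.22 after siPDIA5, and 0.897, 1.67 and 1.55 after siNC. Only the siPDIA1 libraries left the range of the control (difference 2.62 ± 0.14, adjusted p = 4.78e-10).

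In AADAT, PRRC2A and TMSB15A most of the difference lay in a fall after siPDIA5. AADAT, an aminotransferase of the lysine and kynurenine pathways, had RPKM values of 40.2, 36.7 and 35.8 after siPDIA1, 8.19, 7.86 and 9.34 after siPDIA5, and 44.4, 46.0 and 43.9 after siNC. The siPDIA5 libraries were far below the other 6, and siPDIA1 lay slightly below siNC (difference 2.03 ± 0.07, adjusted p = 6.30e-12). PRRC2A, an RNA-binding protein, and TMSB15A, an actin-sequestering thymosin with a close paralog, differed by 1.68 ± 0.07 and 1.56 ± 0.16, and siPDIA5 put both well below siNC (-1.49 ± 0.07 and -1.82 ± 0.16). PLK2, a polo-like kinase, had 25.1, 24.1 and 26.9 after siPDIA1, 6.08, 7.90 and 6.67 after siPDIA5, and 10.9, 11.1 and 10.8 after siNC, so that the knockdowns again moved away from the control in opposite directions (difference 1.75 ± 0.08). Calls on opposite sides were also made for GALNT3, which starts O-glycosylation (difference 1.96 ± 0.10), the orphan receptor gene GPR158 (1.88 ± 0.08), the RNA-binding protein gene MEX3A (1.56 ± 0.07) and TMEM184C (1.51 ± 0.08). In PLK2, GALNT3 and TMEM184C the rise after siPDIA1 was the larger move (1.14 ± 0.08, 1.57 ± 0.10 and 1.10 ± 0.08 from siNC, against -0.60 ± 0.08, -0.39 ± 0.10 and -0.41 ± 0.08 after siPDIA5). TUBA1A, an alpha tubulin whose reads may be shared with other tubulin genes, differed by 2.25 ± 0.12, SDCBP2 by 2.13 ± 0.19 and S100A10, a partner of annexin A2, by 2.54 ± 0.35. These 3 genes were called against siNC after siPDIA1 alone, at 2.15 ± 0.12, 2.03 ± 0.19 and 1.67 ± 0.35. After siPDIA5, S100A10 was -0.87 ± 0.35 from siNC, just short of a call (adjusted p = 0.0502). TUBA1A was -0.10 ± 0.12 and SDCBP2 -0.09 ± 0.19 from siNC after siPDIA5. S100A10 was uneven among the siPDIA5 libraries, at 0.252, 0.125 and 1.12 RPKM. Of the 15 features of any type with the largest difference, 4 of those higher after siPDIA1 and 1 of those higher after siPDIA5 were not protein-coding, and their reads are uncertain.

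**Figure D2:**
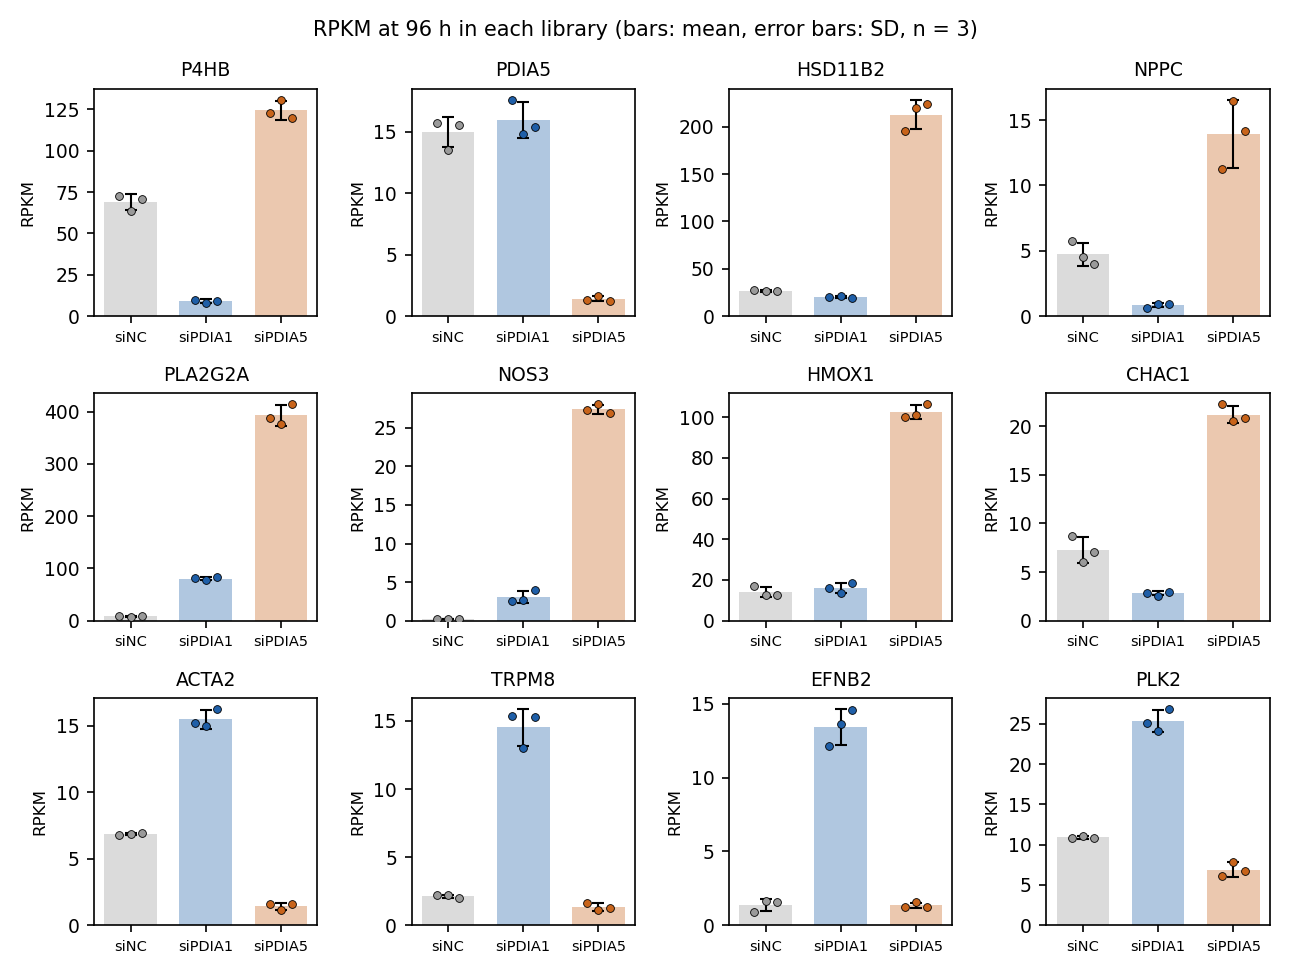
RPKM of 12 genes at 96 h in each library (points) with the mean (bar) and SD (error bar, n = 3) for siNC (grey), siPDIA1 (blue) and siPDIA5 (orange). For P4HB, HSD11B2, NPPC, CHAC1, ACTA2, TRPM8 and PLK2 the knockdowns lie on opposite sides of siNC, NOS3 and PLA2G2A rise stepwise from siNC to siPDIA5 (for NOS3, from 0.230, 0.281 and 0.221 to 27.3, 28.0 and 26.9), and EFNB2 leaves the control range after siPDIA1.

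Genes of the ER folding machinery, to which both targets belong, differed in both directions and mostly by little. Of all tested genes, 27.7% were higher after siPDIA1 and 20.9% after siPDIA5, shares that also serve the ER lists below. Of 17 tested PDI family members, which include both targets, 5 were higher after siPDIA1, 6 were higher after siPDIA5 and 6 were not called, with a median difference of 0.05 against 0.04 over all tested genes. Next to the targets, the member with the smallest adjusted p was ERP29, a redox-inactive PDI relative, at -0.34 ± 0.06 (adjusted p = 1.95e-04). Of 17 ER oxidases and redox partners, 2 were higher after siPDIA1 and 3 after siPDIA5 (median -0.14); QSOX2, a sulphydryl oxidase, differed by 0.54 ± 0.07. Of 19 luminal ER chaperones and cofactors, 2 were higher after siPDIA1 and 6 after siPDIA5, with a median of 0.08. Of these 19, 11 rose and 3 fell against siNC after siPDIA1, and 6 rose and none fell after siPDIA5 (20.1% and 25.2% of all tested genes rose and fell after siPDIA1, 20.8% and 30.3% after siPDIA5). These counts rest on the scaling: under the 3 other scalings 13 or 14 rose after siPDIA1 and 7 to 10 rose after siPDIA5.

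HSPA5, the ER chaperone BiP, had RPKM values of 125, 122 and 124 after siPDIA1, 158, 167 and 149 after siPDIA5, and 109, 102 and 109.7 after siNC. Both knockdowns lay above siNC, siPDIA5 further (difference -0.35 ± 0.04, adjusted p = 5.82e-06). TOR1A, an ATPase of the ER lumen, fell after siPDIA1 (-0.96 ± 0.08) and was 0.00 ± 0.08 from siNC after siPDIA5, and FKBP14, a prolyl isomerase that acts on procollagen, rose after siPDIA1 (1.12 ± 0.11) and was 0.12 ± 0.11 from siNC after siPDIA5. Of 12 genes of the calnexin cycle, which folds glycoproteins, 2 were higher after siPDIA1 and 4 after siPDIA5 (median -0.07): calnexin itself (CANX) differed by -0.74 ± 0.06 and its relative CLGN by -0.81 ± 0.09. Of 22 genes of ER-associated degradation, 5 were higher after siPDIA1 and 6 after siPDIA5 (median -0.02). HERPUD1, which organises the degradation complex, had 16.8, 16.2 and 16.1 after siPDIA1, 38.5, 39.4 and 38.3 after siPDIA5, and 15.3, 15.4 and 16.1 after siNC, with a call against siNC after siPDIA5 and none after siPDIA1 (difference -1.19 ± 0.05, adjusted p = 2.92e-11). SEL1L and SYVN1, the adaptor and the ligase of that complex, differed by -0.81 ± 0.12 and -0.35 ± 0.04, and SYVN1 shares exonic bases with FAU.

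The sharpest contrast in stress genes was in the branch of ATF4. Of 33 tested ATF4 targets, 26 were higher after siPDIA5, 1 was higher after siPDIA1 and 6 were not called, and the median difference was -0.84 against 0.04 over all tested genes. Against siNC, 25 rose and 3 fell after siPDIA5 (median 0.53), and 3 rose and 17 fell after siPDIA1 (median -0.25), with 16 genes called in opposite directions. Between the knockdowns, 20.9% of all tested genes were higher after siPDIA5 and 27.7% after siPDIA1. Relative to siNC, 20.8% of all tested genes rose and 30.3% fell after siPDIA5. After siPDIA1 20.1% rose and 25.2% fell. Without siPDIA1 replicate 1, 28 of the 33 targets were higher after siPDIA5 and 1 after siPDIA1, and without replicate 3, 26 and 1. The member higher after siPDIA1 was ALDH18A1, an enzyme of proline synthesis, at 0.64 ± 0.05, named after its value was seen. ATF4 itself had RPKM values of 103, 97.6 and 96.1 after siPDIA1, 211, 207 and 205 after siPDIA5, and 110.1, 96.1 and 108 after siNC. The siPDIA1 libraries overlapped siNC and the siPDIA5 libraries were apart from both (difference -1.07 ± 0.05, adjusted p = 6.95e-11).

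CHAC1, a target that degrades glutathione, had RPKM values of 2.90, 2.57 and 2.95 after siPDIA1, 22.2, 20.5 and 20.8 after siPDIA5, and 8.71, 6.08 and 7.03 after siNC. The knockdowns moved to opposite sides of siNC (difference -2.55 ± 0.11, adjusted p = 4.92e-11). SLC1A5, the glutamine carrier, had 12.4, 14.3 and 13.0 after siPDIA1, 49.9, 49.2 and 45.4 after siPDIA5, and 32.9, 32.4 and 33.9 after siNC, also on both sides (difference -1.79 ± 0.05). SLC7A11, the cystine carrier, had 1.33, 1.24 and 1.24 after siPDIA1, 9.48, 10.1 and 9.69 after siPDIA5, and 1.56, 3.21 and 2.58 after siNC (difference -2.24 ± 0.16). GDF15, a secreted stress cytokine, differed by -1.47 ± 0.06 and DDIT4, an inhibitor of mTORC1, by -1.31 ± 0.06. The 250 bases before the start are given for CHAC1 and ASNS, asparagine synthetase, which hold the motif marked below. The places are chr15:40953221-40953470, plus strand, for CHAC1 and chr7:97872409-97872658, minus strand, for ASNS. Both are from RefSeq on GRCh38.p14, written 5′ to 3′ on the gene's strand.
CHAC1: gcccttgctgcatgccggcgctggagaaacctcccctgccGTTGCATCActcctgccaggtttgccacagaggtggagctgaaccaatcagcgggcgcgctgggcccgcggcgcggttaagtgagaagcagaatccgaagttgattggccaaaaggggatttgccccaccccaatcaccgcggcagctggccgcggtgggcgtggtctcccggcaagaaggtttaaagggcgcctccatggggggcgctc
ASNS: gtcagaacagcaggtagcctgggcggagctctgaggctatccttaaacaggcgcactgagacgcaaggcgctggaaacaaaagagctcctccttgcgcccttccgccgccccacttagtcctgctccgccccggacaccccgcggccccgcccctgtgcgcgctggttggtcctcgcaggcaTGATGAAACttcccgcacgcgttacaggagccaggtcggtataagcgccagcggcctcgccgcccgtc
The capitals mark a match to TGATGNAAN, a form of the C/EBP-ATF response element, which in CHAC1 reads on the opposite strand. The first base of the match lies 210 bases before the start in CHAC1 and 68 in ASNS. The motif, searched on both strands, was in 3 of the 27 ATF4 targets with a RefSeq promoter (11.1%). It was in 867 of 27305 promoters of the same length (3.18%) and in 1.23% of the 8464 promoters of tested genes. The promoters of DDIT3, TRIB3 and SESN2, searched alike, held no match.

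Genes that carry out or sense the response differed as well. Shares over all tested genes were 20.9% higher after siPDIA5 and 27.7% higher after siPDIA1. Of 16 sensors and transducers of the unfolded protein response, 10 were higher after siPDIA5 and 3 after siPDIA1 (median -0.36). Against siNC, 10 rose after siPDIA5, where 20.8% of all tested genes rose. After siPDIA1 3 rose, near the 20.1% of all tested genes. NFE2L1, a factor of proteasome recovery, rose in both knockdowns, by 0.61 ± 0.05 after siPDIA1 and 1.44 ± 0.05 after siPDIA5. MBTPS2, the protease that releases ATF6, fell after siPDIA1 (-1.28 ± 0.11) and was -0.03 ± 0.11 from siNC after siPDIA5. Of 20 aminoacyl-tRNA synthetases, several of which ATF4 drives, 11 were higher after siPDIA5 and 3 after siPDIA1 (median -0.29), and 8 were called against siNC in opposite directions. GARS1, for glycine, had RPKM values of 8.28, 8.72 and 8.27 after siPDIA1, 23.1, 22.0 and 22.1 after siPDIA5, and 12.2, 12.4 and 12.5 after siNC, with no overlap among the 3 groups (difference -1.31 ± 0.05, adjusted p = 7.59e-12). AARS1, for alanine, differed by -0.89 ± 0.04 and TARS1, for threonine, by -0.67 ± 0.04.

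For BiP, the 250 bases before the start are shown to place the ER stress response element next to the gene's modest difference (HSPA5, chr9:125241344-125241593, minus strand, RefSeq on GRCh38.p14, 5′ to 3′ on the gene's strand).
HSPA5: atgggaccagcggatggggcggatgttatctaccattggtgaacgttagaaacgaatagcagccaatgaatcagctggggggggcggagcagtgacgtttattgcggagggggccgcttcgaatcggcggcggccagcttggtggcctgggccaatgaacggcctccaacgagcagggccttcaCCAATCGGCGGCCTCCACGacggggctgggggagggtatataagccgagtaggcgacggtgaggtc
The capitals mark CCAAT, then any 9 bases, then CCACG, a motif whose first base lies 66 bases before the start. It was found on either strand in 3 of 15 luminal ER chaperone promoters (20%), those of CRELD2, HSP90B1 and HSPA5. The motif was in 22 of 27305 promoters (0.0806%) and in 0.165% of the 8464 promoters of tested genes. The promoter of HERPUD1, searched alike, held no match.

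**Figure D3:**
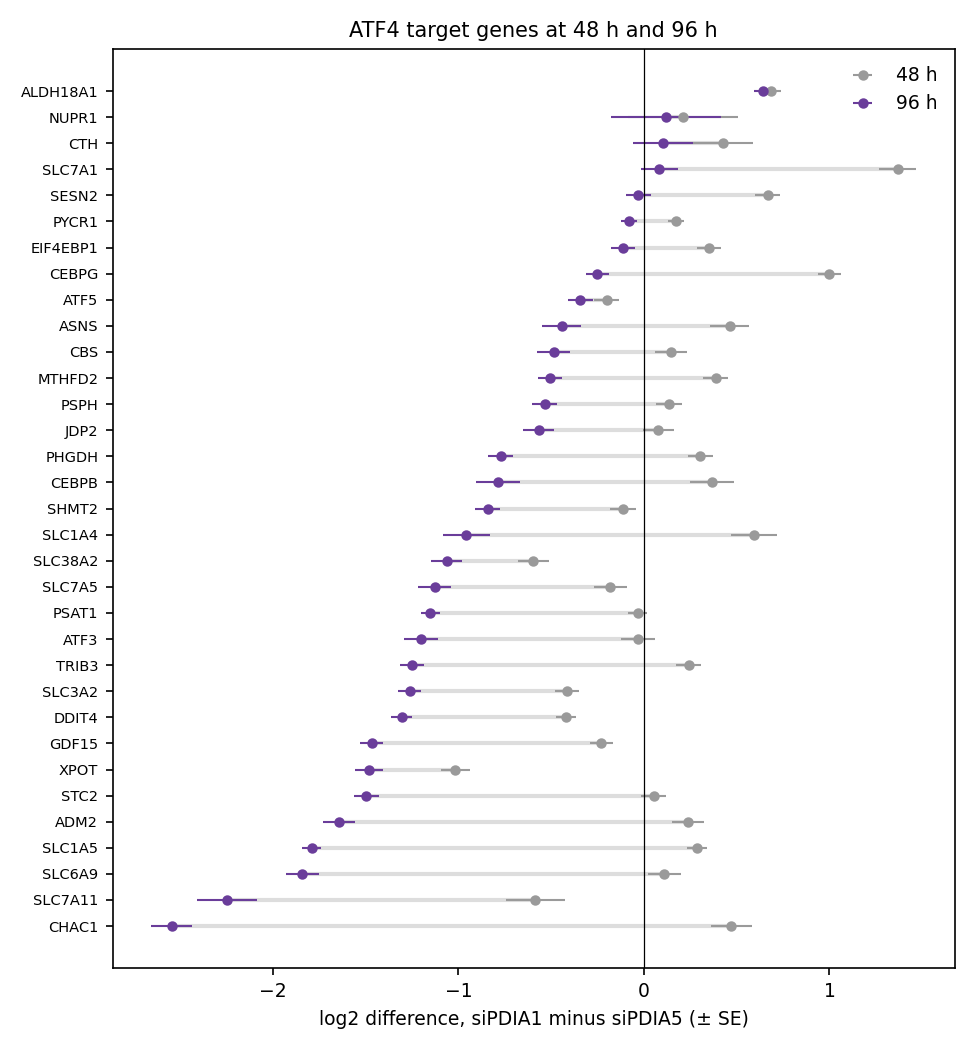
The log2 difference between the knockdowns (siPDIA1 minus siPDIA5, ± SE) for each of the 33 tested ATF4 targets at 48 h (grey) and at 96 h (purple). At 96 h 26 genes lie called on the siPDIA5 side, with CHAC1 lowest at -2.55, while at 48 h the median was 0.17.

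The ATF4 targets did not lean towards siPDIA5 at 48 h. In the 48 h libraries, which are separate from those above, 16 of the 33 targets were higher after siPDIA1 and 7 after siPDIA5 (median 0.17), against 41.2% of all tested genes called, 26.3% higher and 14.9% lower. After median centring of each library the 48 h counts were 11 and 10, so the 48 h balance rests on the scaling. The change of the difference from 48 h to 96 h, tested as an interaction, was called towards siPDIA5 for 29 of the 33 and towards siPDIA1 for none, against 9.23% and 7.73% of all tested genes. For CHAC1 the difference went from 0.47 at 48 h (adjusted p = 0.00286) to -2.55 at 96 h, a change of -3.02 (adjusted p = 3.48e-09). For ATF4 it went from 0.26 to -1.07. Among aminoacyl-tRNA synthetases 11 were higher after siPDIA1 at 48 h and 1 after siPDIA5, which median centring made 4 and 3, and the change with time was called downwards for 11 and upwards for 3.

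Cell cycle genes fell in both knockdowns, and further after siPDIA5. Of all tested genes, 25.2% fell against siNC after siPDIA1 and 30.3% after siPDIA5. Between the knockdowns, 27.7% of all tested genes were higher after siPDIA1 and 20.9% after siPDIA5. Of 63 tested G2/M genes, 61 were higher after siPDIA1 than after siPDIA5, with a median difference of 0.62 against 0.04 over all tested genes. Against siNC, 62 fell after siPDIA5 (median -0.96) and 45 fell after siPDIA1 (median -0.32), 44 of them in both, and none rose in either. CENPN, a centromere protein, was the 1 member higher after siPDIA5 (-0.16 ± 0.06, adjusted p = 0.0483), and KIF22, a kinesin, was the 1 not called; both were named after their values were seen. Of 50 S phase genes, 38 were higher after siPDIA1, 1 was higher after siPDIA5 and 11 were not called (median 0.39), and 43 fell against siNC in both knockdowns. The exception was GMNN, the licensing inhibitor geminin, at -0.58 ± 0.11, also named after its value was seen. Without siPDIA1 replicate 1, 60 of the G2/M genes and 38 of the S phase genes were higher after siPDIA1, and without replicate 3, 59 and 38, with no G2/M gene then called higher after siPDIA5.

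PLK1, the mitotic polo-like kinase, had RPKM values of 16.5, 16.9 and 14.8 after siPDIA1, 8.14, 7.14 and 8.36 after siPDIA5, and 25.3, 24.8 and 24.7 after siNC. The 3 groups were apart and in the order siNC, siPDIA1, siPDIA5 (difference 0.94 ± 0.06, adjusted p = 4.93e-09). CDC20, an activator of the anaphase-promoting complex, had 39.3, 38.6 and 37.7 after siPDIA1, 20.9, 16.9 and 16.5 after siPDIA5, and 62.9, 56.6 and 57.5 after siNC, in the same order (difference 1.06 ± 0.08). UBE2C, its ubiquitin-conjugating enzyme, differed by 1.09 ± 0.08. In S phase, TYMS, thymidylate synthase, had 12.7, 12.2 and 11.2 after siPDIA1, 3.89, 4.43 and 4.81 after siPDIA5, and 15.4, 16.2 and 16.1 after siNC (difference 1.28 ± 0.07, adjusted p = 1.25e-09). TYMS shares 967 exonic bases with ENOSF1 on the other strand. The helicase subunits MCM7 and MCM2 differed by 0.80 ± 0.06 and 0.53 ± 0.04, and RRM2, a subunit of ribonucleotide reductase, by 0.77 ± 0.05. The promoters of PLK1 (chr16:23678639-23678888, plus strand) and CDC20 (chr1:43358731-43358980, plus strand) are shown because late cell cycle genes share a short element there.
PLK1: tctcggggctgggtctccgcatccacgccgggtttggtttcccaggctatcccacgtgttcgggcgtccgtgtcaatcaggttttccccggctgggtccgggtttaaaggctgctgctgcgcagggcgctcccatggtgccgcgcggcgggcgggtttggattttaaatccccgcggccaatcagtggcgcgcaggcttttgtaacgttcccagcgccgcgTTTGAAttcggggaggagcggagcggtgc
CDC20: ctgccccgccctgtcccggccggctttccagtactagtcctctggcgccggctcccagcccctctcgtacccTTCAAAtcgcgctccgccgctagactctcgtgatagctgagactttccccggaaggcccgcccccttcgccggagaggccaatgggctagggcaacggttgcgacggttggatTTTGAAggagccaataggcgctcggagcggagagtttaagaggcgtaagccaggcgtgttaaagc
The capitals mark TTTGAA, the core of the cell cycle genes homology region, on either strand, and the match nearest the start begins 29 bases before it in PLK1 and 65 in CDC20. Of 52 G2/M genes with a RefSeq promoter, 25 held the motif (48.1%), against 3704 of 27305 promoters (13.6%). In the 8464 promoters of tested genes the share was 7.62%.

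Both cell cycle lists already differed at 48 h. In those libraries 50 of 63 G2/M genes were higher after siPDIA1 and 2 after siPDIA5 (median 0.40). For the 50 S phase genes the counts were 35 and 2 (median 0.32), beside 26.3% and 14.9% of all tested genes. Median centring gave 41 and 3 for G2/M and 30 and 2 for S phase. The change with time was called upwards in 23 G2/M genes and downwards in 1, and upwards in 8 S phase genes and downwards in 3. Over all tested genes the shares were 7.73% upwards and 9.23% downwards.

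Most cytosolic ribosomal protein genes were higher after siPDIA1 than after siPDIA5. Among all tested genes 27.7% were higher after siPDIA1 and 20.9% after siPDIA5. Of 76 tested cytosolic ribosomal protein genes, 61 were higher after siPDIA1, 1 was higher after siPDIA5 and 14 were not called (median 0.40). Against siNC, 33 rose and 1 fell after siPDIA1 (median 0.20), none rose and 37 fell after siPDIA5 (median -0.23), and 18 were called in opposite directions. Without siPDIA1 replicate 1 or 3, 62 or 60 were higher after siPDIA1. Under the 3 other scalings the number higher after siPDIA1 was 59 or 60, and the number below siNC after siPDIA5 was 24 to 33. Of all tested genes, 20.1% rose after siPDIA1 and 30.3% fell after siPDIA5. RPS12, a small subunit protein, had RPKM values of 1358, 1433 and 1384 after siPDIA1, 832, 762 and 768 after siPDIA5, and 1159.8, 904 and 1152 after siNC. The knockdowns lay on opposite sides of a control that was itself spread (difference 0.82 ± 0.08, adjusted p = 7.04e-07). RPL4, of the large subunit, had 621, 558 and 543 after siPDIA1, 388, 361 and 368 after siPDIA5, and 539, 453 and 502 after siNC (difference 0.62 ± 0.06). RPL22 was the exception: it had 7.17, 6.97 and 7.36 after siPDIA1, 12.4, 11.4 and 11.7 after siPDIA5, and 21.8, 18.6 and 21.0 after siNC, below the control in both and lowest after siPDIA1 (difference -0.65 ± 0.07). At 48 h 1 of the 76 was higher after siPDIA1 and 2 after siPDIA5 (median -0.00), which became 18 and 4 under quantile normalization, and the change with time was called upwards for 43 and downwards for none. Ribosomal protein genes have many pseudogenes, so reads may have been split between copies.

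Nuclear-encoded mitochondrial genes differed by smaller amounts. Of 73 respiratory chain genes, 30 were higher after siPDIA1 and 1 after siPDIA5 (median 0.13). Of 71 mitochondrial ribosomal protein genes, 23 were higher after siPDIA1, a share near the 27.7% of all tested genes, 6 were higher after siPDIA5 and 42 were not called (median 0.13). Against siNC, 27 of the 71 fell after siPDIA1 and 39 fell after siPDIA5, 20 of them in both, beside 25.2% and 30.3% of all tested genes. ATP5F1E, a subunit of ATP synthase, had RPKM values of 43.8, 44.9 and 45.1 after siPDIA1, 25.2, 24.3 and 23.3 after siPDIA5, and 42.3, 31.5 and 39.6 after siNC, with siPDIA1 slightly above siNC and siPDIA5 further below it (difference 0.85 ± 0.08). NDUFB4, a complex I subunit, was the 1 respiratory chain gene higher after siPDIA5 (-0.34 ± 0.08), named after its value was seen. Among the mitochondrial ribosome genes MRPS27 differed by 0.82 ± 0.04, while MRPL20 differed by -1.05 ± 0.08 after a fall with siPDIA1 (-1.28 ± 0.08 from siNC). Of the 13 mitochondrially encoded genes, 6 were higher after siPDIA5 and 1 after siPDIA1 (median -0.18); quantile normalization, which ties the most abundant genes, left 3 and 1. MT-CO2 and MT-CYB differed by -0.35 ± 0.07 and -0.27 ± 0.06, in step with the share of reads given above.

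**Figure D4:**
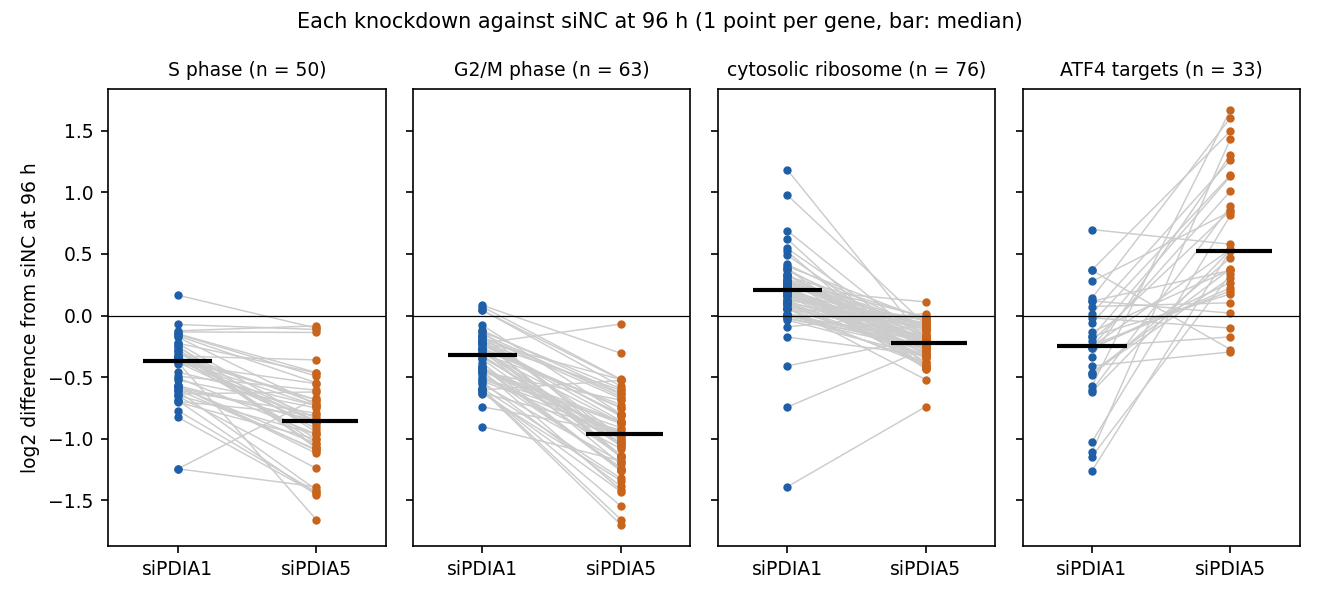
The log2 difference from siNC at 96 h for each gene (points, joined by grey lines) after siPDIA1 (blue) and siPDIA5 (orange), with black bars at the medians, for S phase (50 genes), G2/M (63), cytosolic ribosome (76) and ATF4 targets (33). The cell cycle medians are below 0 in both knockdowns and lower after siPDIA5 (-0.86 and -0.96), while ribosomal genes (0.20 and -0.23) and ATF4 targets (-0.25 and 0.53) have medians on opposite sides of 0.

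Androgen-responsive genes, the readout of hormone signalling in this line, showed no common direction between the knockdowns. Shares over all tested genes were 27.7% higher after siPDIA1 and 20.9% higher after siPDIA5. Of 29 tested androgen-induced genes, 10 were higher after siPDIA1, 10 were higher after siPDIA5 and 9 were not called (median -0.04), and 13 fell against siNC in both. KLK3, prostate-specific antigen, had RPKM values of 354, 342 and 355 after siPDIA1, 609, 598 and 600.0 after siPDIA5, and 306, 273 and 295 after siNC. It rose in both knockdowns and more after siPDIA5 (difference -0.78 ± 0.05, adjusted p = 2.93e-09). KLK2, a neighbouring kallikrein of similar sequence, differed by -0.65 ± 0.07. SLC45A3, or prostein, had 19.5, 17.6 and 16.9 after siPDIA1, 36.2, 40.7 and 36.4 after siPDIA5, and 144, 155 and 160.3 after siNC, a steep fall in both that was deeper after siPDIA1 (difference -1.03 ± 0.06). FKBP5, a cochaperone of steroid receptors, had 11.1, 12.7 and 11.6 after siPDIA1, 6.16, 6.51 and 6.31 after siPDIA5, and 7.66, 8.49 and 7.97 after siNC, on either side of the control (difference 0.80 ± 0.07, adjusted p = 1.59e-07). TMPRSS2, a serine protease, fell in both knockdowns and differed between them by 0.11 ± 0.04 (adjusted p = 0.0455), a call that was lost in 14 of 17 alternatives. Of 9 genes repressed by androgen, 5 were higher after siPDIA5 and 4 after siPDIA1: CAMK2N1, an inhibitor of CaMKII, rose strongly in both (difference 0.76 ± 0.06), and DDC, aromatic amino acid decarboxylase, fell after siPDIA1 and rose after siPDIA5 (-1.91 ± 0.10). Of 11 luminal markers, 3 were higher after siPDIA1 and 4 after siPDIA5, and HOXB13, a homeobox factor of prostate, differed by 0.59 ± 0.04.

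Lipid genes had members on each side, and glycolysis genes had more members on the siPDIA1 side. Over all tested genes, 27.7% were higher after siPDIA1 and 20.9% after siPDIA5. For the cholesterol and fatty acid lists below, the share higher after siPDIA1 was near that of all tested genes. Of 28 genes of cholesterol synthesis and uptake, 8 were higher after siPDIA1 and 8 after siPDIA5 (median 0.03). TM7SF2, a sterol reductase, had RPKM values of 71.5, 70.9 and 72.5 after siPDIA1, 205, 212 and 194 after siPDIA5, and 125, 107 and 115 after siNC, on both sides of the control (difference -1.49 ± 0.05, adjusted p = 6.30e-12). Of 22 fatty acid genes, 6 were higher after siPDIA1 and 8 after siPDIA5 (median -0.05), with SCD, stearoyl-CoA desaturase, at -0.86 ± 0.08 and ELOVL7, an elongase, at -0.75 ± 0.08. Of 30 glycolysis and glucose uptake genes, 16 were higher after siPDIA1 and 5 after siPDIA5 (median 0.22): PFKFB3 and PFKM, which set the flux at phosphofructokinase, differed by 1.13 ± 0.13 and 0.47 ± 0.05, whereas VEGFA, an angiogenic factor on the same list, differed by -1.23 ± 0.05.

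Redox and heat shock genes held some of the larger differences towards siPDIA5. Between the knockdowns, 20.9% of all tested genes were higher after siPDIA5 and 27.7% after siPDIA1. Of 29 NRF2 targets and iron genes, 12 were higher after siPDIA5 and 6 after siPDIA1 (median -0.04). Against siNC, 15 rose and 4 fell after siPDIA5, beside 20.8% and 30.3% of all tested genes. After siPDIA1 11 rose and 7 fell, beside 20.1% and 25.2%, so the falls were near the share of all genes. The list had HMOX1 and SLC7A11, described above, and EPHX1, an epoxide hydrolase (-1.0 ± 0.05), on the siPDIA5 side and CAT, catalase (0.46 ± 0.03), on the other. Of 29 genes of the HSP90 machine and heat shock, 10 were higher after siPDIA5 and 9 after siPDIA1 (median -0.05). The small heat shock protein HSPB1 had RPKM values of 692, 629 and 679.9 after siPDIA1, 2137, 2098 and 2299 after siPDIA5, and 680.0, 536 and 622 after siNC. Its rise was on the siPDIA5 side (difference -1.71 ± 0.08, adjusted p = 1.23e-10). CRYAB and HSPB8, of the same family, differed by -2.12 ± 0.09 and -1.74 ± 0.10, and both rose against siNC in both knockdowns. PTGES3, the HSP90 cochaperone p23, fell after siPDIA5 (-1.23 ± 0.04) more than after siPDIA1 (-0.24 ± 0.04). Of 37 proteasome genes, 27 were not called, 6 were higher after siPDIA5 and 4 after siPDIA1 (median 0.00).

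Immune signalling genes that were called lay mostly on the siPDIA5 side. Between the knockdowns, 20.9% of all tested genes were higher after siPDIA5 and 27.7% after siPDIA1. Of 14 NF-kB subunits, inhibitors and targets, 8 were higher after siPDIA5 and none after siPDIA1 (median -0.40). Against siNC, 9 rose after siPDIA5 and 1 after siPDIA1, beside 20.8% and 20.1% of all tested genes. NFKB2, the p100 subunit, had RPKM values of 16.1, 17.0 and 16.5 after siPDIA1, 34.4, 34.2 and 36.1 after siPDIA5, and 25.4, 23.0 and 26.3 after siNC, on both sides of the control (difference -1.03 ± 0.05, adjusted p = 1.23e-10). Its partner RELB differed by -0.93 ± 0.11 and the inhibitor NFKBIA by -0.60 ± 0.08. Of 10 genes of MHC class I and peptide loading, 6 were higher after siPDIA5 and none after siPDIA1 (median -0.19), with TAPBPL at -0.95 ± 0.11 and HLA-B, which has close paralogs, at -0.63 ± 0.09. Of 20 interferon-stimulated genes, 9 were higher after siPDIA5 and 2 after siPDIA1 (median -0.23), and IRF7, an interferon regulatory factor, differed by -0.98 ± 0.07.

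Immediate early genes and genes of ID, HES, BMP and Notch signalling had more members on the siPDIA5 side. For all tested genes the shares were 20.9% higher after siPDIA5 and 27.7% higher after siPDIA1. The counts for insulin-like growth factor signalling below were near these shares. Of 20 immediate early genes, 10 were higher after siPDIA5 and 6 after siPDIA1 (median -0.19), among them JUNB (-1.29 ± 0.06) and the phosphatases DUSP5 (-1.63 ± 0.10) and DUSP4 (-1.26 ± 0.08). Of 21 ID, HES, BMP and Notch genes, 10 were higher after siPDIA5 and 3 after siPDIA1 (median -0.22). ID2, an inhibitor of bHLH factors, had RPKM values of 2.02, 2.83 and 2.81 after siPDIA1, 14.5, 13.0 and 13.0 after siPDIA5, and 6.60, 6.63 and 6.29 after siNC, on both sides of the control (difference -2.04 ± 0.11, adjusted p = 6.85e-10). BAMBI, a decoy receptor for the BMP family, went the other way (1.44 ± 0.07). Of 13 genes of insulin-like growth factor signalling, 4 were higher after siPDIA1 and 3 after siPDIA5 (median -0.04), with INSR at -0.85 ± 0.10 and IGFBP3 at 0.66 ± 0.08.

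Growth arrest and death genes were divided. Of all tested genes, 27.7% were higher after siPDIA1 and 20.9% after siPDIA5. The BCL2 and caspase count on the siPDIA1 side was near that share. Of 33 p53 targets, 12 were higher after siPDIA1 and 10 after siPDIA5 (median 0.06). CDKN1A, the cell cycle inhibitor p21, had RPKM values of 171, 169 and 168 after siPDIA1, 339, 369.6 and 362 after siPDIA5, and 375, 382 and 411 after siNC, with a fall in both that was larger after siPDIA1 (difference -1.07 ± 0.04, adjusted p = 2.82e-11). TNFRSF10D, a decoy receptor for TRAIL, differed by 1.19 ± 0.06. Of 26 BCL2 family members and caspases, 8 were higher after siPDIA1 and 9 after siPDIA5 (median -0.06), with the BH3-only gene BMF at 1.12 ± 0.07 and the survival factors MCL1 and XIAP at -0.78 ± 0.06 and -0.87 ± 0.10.

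Structural genes differed often, in both directions: 80.8% of the actin, 80% of the junction and 72.7% of the matrix genes below were called. Over all tested genes the share was 48.5%, with 27.7% higher after siPDIA1 and 20.9% higher after siPDIA5. Of 26 actin cytoskeleton genes, 15 were higher after siPDIA1 and 6 after siPDIA5 (median 0.24), including the myosin light chain MYL9 (1.48 ± 0.11) and the tropomyosin TPM4 (0.83 ± 0.06), against ZYX, zyxin (-0.79 ± 0.07). Of 20 genes of desmosomes, adherens and tight junctions, 10 were higher after siPDIA5 and 6 after siPDIA1 (median -0.10). JUP, plakoglobin, had RPKM values of 62.7, 61.6 and 64.9 after siPDIA1, 153, 168 and 158 after siPDIA5, and 119, 117 and 123 after siNC (difference -1.32 ± 0.04, adjusted p = 7.60e-13). PERP, a desmosome protein, had 47.9, 49.7 and 50.1 after siPDIA1, 18.7, 16.2 and 16.9 after siPDIA5, and 15.1, 14.1 and 14.8 after siNC (difference 1.46 ± 0.05). JUP was thus on both sides of the control, and PERP rose chiefly after siPDIA1. Of 22 matrix and integrin genes, 8 were higher on each side (median -0.05), and LAMB2, a laminin chain, had 43.7, 40.9 and 44.7 after siPDIA1, 152, 166 and 155 after siPDIA5, and 35.7, 34.5 and 36.3 after siNC (difference -1.85 ± 0.05, adjusted p = 1.15e-13). Of 7 neuroendocrine genes, 4 were higher after siPDIA1 and 3 after siPDIA5: SYT4, a synaptotagmin, rose strongly in both knockdowns (difference 0.83 ± 0.05).

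**Figure D5:**
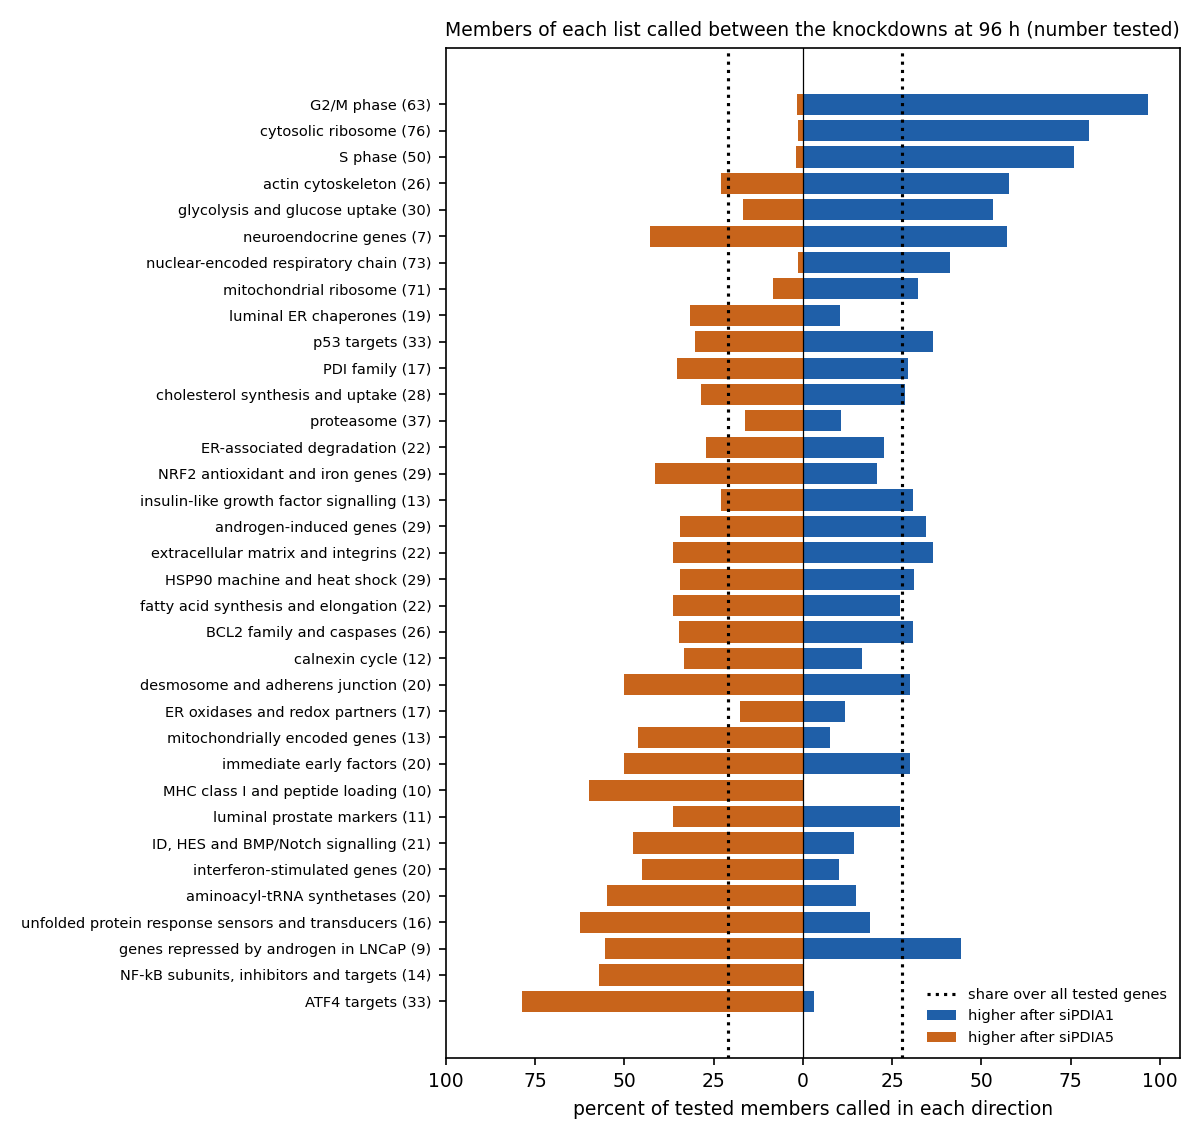
Percent of the tested members of each list called higher after siPDIA1 (blue, to the right) or after siPDIA5 (orange, to the left), for the lists with 5 or more tested members, ordered by median difference, with the number tested in brackets. Dotted lines mark the shares over all tested genes, 27.7% and 20.9%; G2/M, cytosolic ribosome and S phase stand furthest to the right and ATF4 targets furthest to the left.

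The contrast at 96 h was set beside that at 48 h, in separate libraries. At 48 h 4813 genes (41.2%) were called between the knockdowns, 3070 higher after siPDIA1 and 1743 after siPDIA5, a balance that became 2041 and 2650 under median centring. Of the 120 genes at least 2-fold higher after siPDIA1 at 96 h, 93 were called in the same direction at 48 h and 1 in the opposite direction. Of the 224 at least 2-fold higher after siPDIA5, 172 were called in the same direction at 48 h and 7 in the opposite direction. The difference was larger at 96 h by a called amount in 50 of the 120 and smaller in 8. Among the 224 it was larger in 144 and smaller in 3. Both sets were chosen for a large difference at 96 h, which favours a larger value at that time, so these counts cannot show growth with time. Over all tested genes, 1981 (17.0%) had a called change of the difference between the times, 903 upwards and 1078 downwards; median centring gave 1408 and 691, and rescaling without the mitochondrially encoded genes gave 723 and 1183.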

How the data were processed

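The authors deposited 1 table of RPKM values, and no counts were used. Builds GRCh38 and hg38 appear in the submitters' processing notes, as do STAR 2.7.0f, cutadapt 1.8, R 3.4.1, DESeq2 and featureCounts, with no step assigned to any. Annotation release, strand setting and treatment of multi-mapping reads: not given in the sources used here. Genes were matched to GENCODE 29 on GRCh38 (57118 of 59385). Depth was estimated from the steps between low RPKM values (99.6% to 99.8% whole within 0.1 read) and enters no test.

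Values were analysed as log2(RPKM + 1), which understates changes of low genes. The limma 3.58.1 model (under R 4.3.3) held a mean for each of 6 groups and used a trended empirical Bayes spread, with p-values adjusted by Benjamini and Hochberg over 11685 genes. The fit was tested on simulated data. With 3 libraries against 3, an exact two-sided permutation test of a single value cannot go below 0.1, so none was used. Replicates correlated at 0.971 to 0.993 and no 2 libraries were identical. The genes named were 6 fixed by name, the 15 protein-coding genes with the largest non-overlapping difference in each direction, 5 called in opposite directions, 5 per direction by change with time, and up to 4 per list by adjusted p; some of these are not reported here. Alternatives were another pseudocount, no filter or a mean RPKM of at least 5, 3 other scalings, a replicate block, smaller fits, no trend, protein-coding genes alone and leaving out each replicate. Genes and 39 lists were chosen with earlier results of these data known. Promoters came from RefSeq on GRCh38.p14.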

Additional observations from a re-analysis of the deposited data

Results flagged for a closer look

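The difference between the knockdowns was tested for a change from 48 h to 96 h (an interaction in the limma model), and 1981 genes passed. Among the genes named here, those whose log2 difference (siPDIA1 minus siPDIA5) changed by at least 1 are given here with that change. Many genes were named for a clear difference at 96 h or a large change with time, which favours large changes here. Towards siPDIA5, the changes of the log2 difference were CHAC1 -3.02, S100P -2.64, DDIT3 -2.14, HMOX1 -2.13, EGR1 -2.13, SLC1A5 -2.08, HSD11B2 -1.92, NOS3 -1.91, MYOZ1 -1.68, SLC7A11 -1.66 and NPPC -1.55. Further changes in the same direction, also as log2, were CRYAB -1.45, GARS1 -1.34, ATF4 -1.33, PRUNE2 -1.28, GDF15 -1.24, LAMB2 -1.17, VEGFA -1.16, DUSP5 -1.11, AARS1 -1.09, UGT2B11 -1.08 and TSC22D3 -1.0. Towards siPDIA1, the log2 changes were MYL9 1.02, GALNT3 1.05, LAMB3 1.12, EFNB2 1.44, ACTA2 1.56, TRPM8 1.75, SDCBP2 1.8, THRSP 1.85 and S100A10 2.03. With 3 libraries in a group, the values of single genes were not screened for outlying libraries.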

How the results depend on the processing

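No gene called between the knockdowns at 96 h was called in the opposite direction in any of the alternatives. Requiring a mean RPKM of at least 5 left fewer genes to test and gave 3775 calls at 96 h and 3058 at 48 h. Leaving out each replicate gave 4962 to 5145 calls at 96 h, 4086 to 4390 at 48 h, 1466 to 1807 for the change with time, 4626 to 5190 for siPDIA1 against siNC and 5322 to 5859 for siPDIA5 against siNC. A pseudocount of 0.25 raised the genes at least 2-fold apart to 564. A fit on only the groups compared left 1151 of the called genes with no call against siNC on either side, against 585. Between siPDIA1 and siPDIA5 at 96 h, replicate numbers did not pair the libraries (correlations of same-numbered deviations -0.047 to 0.0022, 0 of 3 over 0.1). Not every library there correlated best with its own number. Over all pairs of groups these correlations were -0.257 to 0.139, with 4 of 45 over 0.1. Between 48 h and 96 h, each siPDIA1 library correlated best with its own number (0.0708, 0.0435 and 0.0635). Each siNC library did so too, but not each siPDIA5 library. The replicate block gave 5585 calls at 96 h and 1842 for the change with time. Of 164 named genes, 7 lost their call in some alternative: TMPRSS2 in 14, THRSP in 4, MT-CO1 and MT-ND4 in 3, MT-CO2 and VWF in 2 and MT-CYB in 1. Of the list counts and medians under alternatives, 1827 stayed near the main value and 105 moved; the cause was not tested. RPKM keeps no counts, so counting error of low genes enters only through the spread between libraries.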

Other observations

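THRSP, a regulator of lipogenesis, crossed over between the times. At 48 h its mean RPKM was 2.96 after siPDIA1 and 7.47 after siPDIA5 (log2 difference -1.12), and at 96 h the libraries had 5.70, 7.37 and 6.25 after siPDIA1 and 2.74, 3.74 and 4.01 after siPDIA5 (log2 difference 0.73 ± 0.23, adjusted p = 0.0174). The call at 96 h was lost in 4 of 16 alternatives.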
